A study of Mus musculus with 9 samples.

Results

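The genes described here encode the proteins of the cytosolic ribosome of mouse CD8+ T cells that did or did not carry mitochondria from stromal cells. They were chosen by symbol, as genes named Rpl or Rps followed by the number and suffix of a ribosomal protein, which gave 89 of 55421 genes: 53 of the large subunit and 36 of the small one. Of the 89, 83 are annotated as protein-coding and 6 as processed pseudogenes that carry a ribosomal protein symbol (Rps4l, Rps12l1, Rpl32l, Rpl6l, Rps3a2 and Rps3a3). Enough counts for a test were found for 87 of them, 51 of the large and 36 of the small subunit. The other 2 were Rpl3l, with 2 counts over 9 libraries, and Rpl10l, with 0 counts.

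All cells came from spleens of Pmel Ly5.1 mice, whose T cells carry a transgenic receptor for the melanocyte protein gp100. MitoPositive cells had been kept for 36 h with DM5, an immortalised stromal line from mouse bone marrow whose mitochondria were marked with the red protein DsRed, and were sorted as DsRed-positive. MitoNegative cells came from such co-cultures and were sorted as DsRed-negative. Monoculture cells had been kept without stromal cells. Sample titles also carry a time of 0 h, which the labels do not explain. Each group had 3 libraries, lettered B, C and D, of total RNA depleted of ribosomal RNA. The labels do not say whether the letters are separate animals or cultures, so p-values measure the spread between these libraries, which may be technical.

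Each cytosolic ribosome joins a small subunit, which reads the messenger RNA, to a large subunit, which makes the peptide bond. Most of its proteins are needed in equal numbers, and their messenger RNAs mostly begin with a C followed by a run of pyrimidines (the 5′ terminal oligopyrimidine, or TOP, motif), through which mTORC1 sets how strongly they are translated. T cells that leave quiescence build many new ribosomes, and several ribosomal protein genes have a paralog that is expressed at a much lower level than its parent.

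Total counts per library ranged from 53546152 to 74722832. Cd8a was at 1152 to 1273 CPM (counts scaled to a common library total, adjusted by TMM) in MitoPositive, 1189 to 1319 in MitoNegative and 1066 to 1253 in monoculture cells. Of 13 CD8 T-cell markers 3 were higher and 7 lower in MitoPositive and 3 higher and 8 lower in MitoNegative than in monoculture cells, and the list summed to 7770 to 8320 CPM, 7380 to 7760 CPM and 7180 to 8650 CPM in these groups. Of 16 tested stromal markers 14 were higher in each co-cultured group than in monoculture. Without Thy1, which T cells express too, the other 15 summed to 14.4 to 37.8 CPM in MitoPositive, 13.8 to 40 CPM in MitoNegative and 0.918 to 1.31 CPM in monoculture libraries, and 7 of them were at 0 in all monoculture libraries. The 8 B-cell markers summed to 278 to 309 CPM in MitoPositive, 367 to 461 CPM in MitoNegative and 679 to 752 CPM in monoculture cells. DM5 is a single immortalised line. The part of RNA from these other cells in the results was not tested, and in bulk RNA fewer cells of a type and less RNA per cell cannot be told apart.

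The 2 members that changed most in MitoPositive against monoculture cells, Rpl22l1 and Rps27l, are both paralogs. Rps27l (chr9:66946086-66949516, plus strand, GRCm38) encodes a near copy of the zinc-binding small-subunit protein that Rps27 (chr3:90212522-90213651, minus strand) encodes. The coding sequences of both, from GENCODE M21 on GRCm38 and read along each gene's own strand, are shown because the results separate the pair. Each is 255 bases long, and capitals mark the 61 positions at which they differ, which leaves 76.1% identity.
Rps27l: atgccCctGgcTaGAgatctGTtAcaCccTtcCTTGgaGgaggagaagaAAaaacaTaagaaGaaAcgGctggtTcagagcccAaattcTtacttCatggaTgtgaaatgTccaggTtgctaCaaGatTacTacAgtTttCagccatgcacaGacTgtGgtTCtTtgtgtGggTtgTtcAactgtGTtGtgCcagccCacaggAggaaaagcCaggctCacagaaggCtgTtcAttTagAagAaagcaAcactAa
Rps27: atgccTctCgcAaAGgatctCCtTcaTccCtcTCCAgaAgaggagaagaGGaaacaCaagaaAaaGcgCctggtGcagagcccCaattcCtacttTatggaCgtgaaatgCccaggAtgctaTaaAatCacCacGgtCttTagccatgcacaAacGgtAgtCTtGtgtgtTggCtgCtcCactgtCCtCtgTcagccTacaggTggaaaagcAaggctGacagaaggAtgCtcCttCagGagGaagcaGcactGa
Differences are spread over the whole length. Of the distinct 50-base stretches in the annotated transcripts of Rps27l 11.2% also occur in another gene, against 25% for Rps27.

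The start regions of ribosomal protein genes were read from the RefSeq promoter table on GRCm38.p6, which held 64 of the 89 members. The longest run of C and T that began with a C was sought from 20 bases before to 50 bases after the annotated start, on the gene's own strand. A run of at least 8 bases was found in 49 of the 64 members (76.6%), against 6135 of 27025 genes (22.7%), and the median longest run was 10 bases in members and 5 bases in all genes. The letters CGGAAGT, the core that ETS-family factors such as GABP bind, were sought on both strands from 150 bases before to 50 bases after the start and occurred in 19 members (29.7%) and 1704 genes (6.3%). On the opposite strand the same letters read ACTTCCG, whose middle can overlap a pyrimidine run. Where a gene had several annotated starts, as 10 of the 64 members (15.6%) and 15.4% of all genes had, the longest run and any match were taken. A match is a description of the letters and not of binding.

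Windows of 70 bases, from 40 bases before the start, are shown for Rps27l, Rpl22l1 and Rpl18, 3 of the 4 members called in MitoPositive against monoculture cells, for Rps27, for Rpl14, for Rps6, a TOP gene that S6 kinase acts on at the protein level, and for Rplp2 of the ribosomal stalk. Capitals mark the pyrimidine run. The longest run of Rps19, the other called member, had 9 bases and began 41 bases after the start, past such a window.
Rps27l: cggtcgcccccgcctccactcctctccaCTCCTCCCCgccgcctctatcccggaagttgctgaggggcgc
Rps27: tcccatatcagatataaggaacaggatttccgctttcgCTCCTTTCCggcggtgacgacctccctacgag
Rpl22l1: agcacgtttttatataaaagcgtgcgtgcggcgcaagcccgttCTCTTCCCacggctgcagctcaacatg
Rpl18: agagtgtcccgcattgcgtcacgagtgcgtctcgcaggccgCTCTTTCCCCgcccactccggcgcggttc
Rpl14: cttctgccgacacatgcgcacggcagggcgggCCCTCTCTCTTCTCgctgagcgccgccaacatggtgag
Rps6: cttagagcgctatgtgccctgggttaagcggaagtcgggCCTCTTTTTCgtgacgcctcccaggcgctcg
Rplp2: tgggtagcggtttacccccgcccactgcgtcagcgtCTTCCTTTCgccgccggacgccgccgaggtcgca
The windows lie at chr9:66946046-66946115 (plus strand) for Rps27l, chr3:90213619-90213688 (minus) for Rps27, chr3:28805468-28805537 (plus) for Rpl22l1, chr7:45718031-45718100 (plus) for Rpl18, chr9:120571477-120571546 (plus) for Rpl14, chr4:86857338-86857407 (minus) for Rps6 and chr7:141447611-141447680 (plus) for Rplp2. The run measured 8 bases in Rpl22l1, 9 in Rps27l, Rps27 and Rplp2, 10 in Rpl18 and Rps6, and 14 in Rpl14, so members that rose and members that fell both carried one. In Rps27l it began 12 bases before the annotated start, and in Rpl18 1 base after it.

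Most ribosomal protein genes were expressed at high and similar levels. Per kilobase of annotated exon and averaged over 9 libraries, 29 members were at or above 1000 CPM per kb, 45 were between 100 and 1000, 5 between 10 and 100 (Rps27l, Rpl22l1, Rpl7l1, Rpl13a and Rps3a2), 9 above 0 and under 10, and Rpl10l was at 0. The acidic stalk protein gene Rplp1 stood highest, at 4206 CPM per kb in MitoPositive, 4340 in MitoNegative and 3925 in monoculture cells. Next came Rps15, at the head of the small subunit, with 3177, 3431 and 3432 CPM per kb in MitoPositive, MitoNegative and monoculture cells. Rplp0, the base of the stalk, followed with 3103, 3297 and 3032 CPM per kb in these groups, then Rps3a1 with 2632, 2667 and 2875, and Rpl23a, which lies at the exit of the peptide tunnel, with 2240, 2456 and 2279. Exon lengths include rarely used exons.

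**Figure D1:**
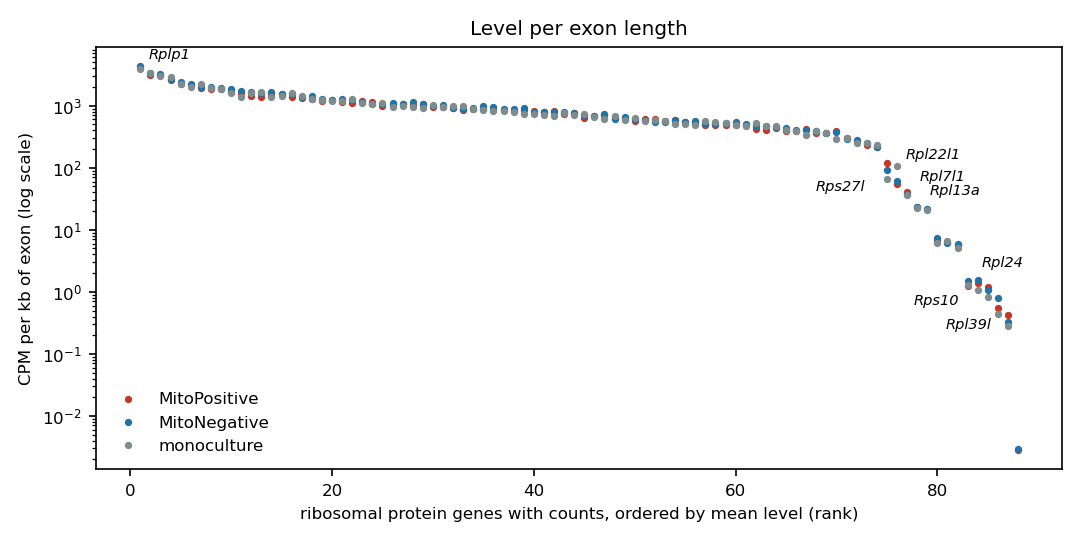
Level of each ribosomal protein gene with counts, as mean CPM per kb of exon (log scale) in MitoPositive (red), MitoNegative (blue) and monoculture (grey) cells, ordered by the mean over all libraries. The 3 colours lie on each other for most genes, and separate at Rps27l and Rpl22l1.

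At the bottom stood Rpl39l, a paralog known for its role in male germ cells, with 0.415, 0.330 and 0.285 CPM per kb in MitoPositive, MitoNegative and monoculture cells, and 171 counts in all. The pseudogene Rps4l was at 1.20 CPM per kb in MitoPositive, 1.05 in MitoNegative and 0.836 in monoculture cells. Another, Rps12l1, was at 0.551, 0.782 and 0.441 CPM per kb in these groups. Rpl3l, known from skeletal and heart muscle, had 1 count in MitoPositive D and 1 in MitoNegative C. Rpl24, Rps10 and Rpl13a encode core ribosomal proteins and had 810, 1825 and 28303 counts over all libraries. They share 47.0%, 20.6% and 35.4% of their exon bases on the same strand with another annotated gene that is listed at 0, and the next highest share among members was 14.5% (Rpl32). Levels of these 3 genes are therefore uncertain.

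As a family, ribosomal protein genes took shares of the counts that overlapped between the groups. Their summed counts took 12.26, 13.81 and 13.27% of all counts in MitoPositive B, C and D, 13.27, 14.2 and 13.38% in MitoNegative B, C and D, and 11.4, 12.45 and 14.59% in monoculture B, C and D. Monoculture held both the lowest and the highest library, and the groups overlap. The means were 13.1% ± 0.785 in MitoPositive, 13.6% ± 0.509 in MitoNegative and 12.8% ± 1.63 in monoculture cells (SD, n = 3 each). Two-sided exact permutation tests gave p = 0.8 for MitoPositive against monoculture, p = 0.5 for MitoNegative against monoculture and p = 0.4 for MitoPositive against MitoNegative, or 0.8, 0.75 and 0.75 after Benjamini-Hochberg adjustment over the 3, where 0.1 is the smallest value the design allows. Within letters, the share was lower in MitoPositive than in MitoNegative for 3 of 3 letters, by 1.01, 0.394 and 0.111 percentage points in B, C and D. With labels exchanged within letters only, an alternative chosen after seeing the data, the two-sided exact permutation p was 0.25 for MitoPositive against MitoNegative, the smallest that 3 pairs allow, and 0.5 for MitoNegative against monoculture.

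**Figure D2:**
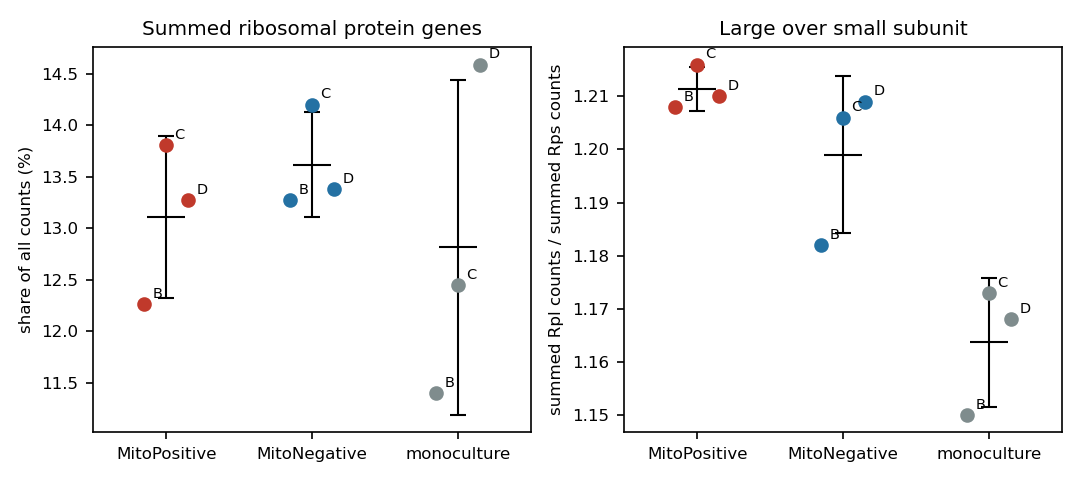
Left, summed counts of 89 ribosomal protein genes as a percentage of all counts in each library. Right, summed counts of large-subunit (Rpl) over small-subunit (Rps) genes. Points are libraries B, C and D of MitoPositive, MitoNegative and monoculture cells, and bars show mean ± SD (n = 3). Monoculture D stands at 14.59%, above the other monoculture libraries, and all monoculture ratios lie under those of both co-cultured groups.

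The 2 subunits did not move quite together. Large-subunit counts were 1.208, 1.216 and 1.21 times the small-subunit counts in MitoPositive B, C and D and 1.182, 1.206 and 1.209 times in MitoNegative B, C and D, against 1.15, 1.173 and 1.168 times in monoculture B, C and D. All 6 co-cultured libraries lay above all 3 monoculture libraries, by a few percent, while MitoPositive and MitoNegative overlapped. The median log2 fold change of MitoPositive over monoculture was 0.08 over 51 large-subunit and -0.03 over 36 small-subunit members, and of MitoNegative over monoculture 0.11 and 0.06. No test was made of this ratio.

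Monoculture D stood apart from monoculture B and C in ribosomal protein genes. Of 81 tested coding members, 76 were above their own mean over all libraries in monoculture D, 15 in monoculture C and 5 in monoculture B. The median deviation was 0.22 in monoculture D, -0.09 in monoculture C and -0.25 in monoculture B on the log2 scale, and its TMM factor was 0.9426 against 0.9873 to 1.022 in the other libraries. The coding members thus shifted together within a group. Their median within-group SD was 0.163 on the log2 scale as CPM and 0.0405 as a share of the summed member counts.

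**Figure D3:**
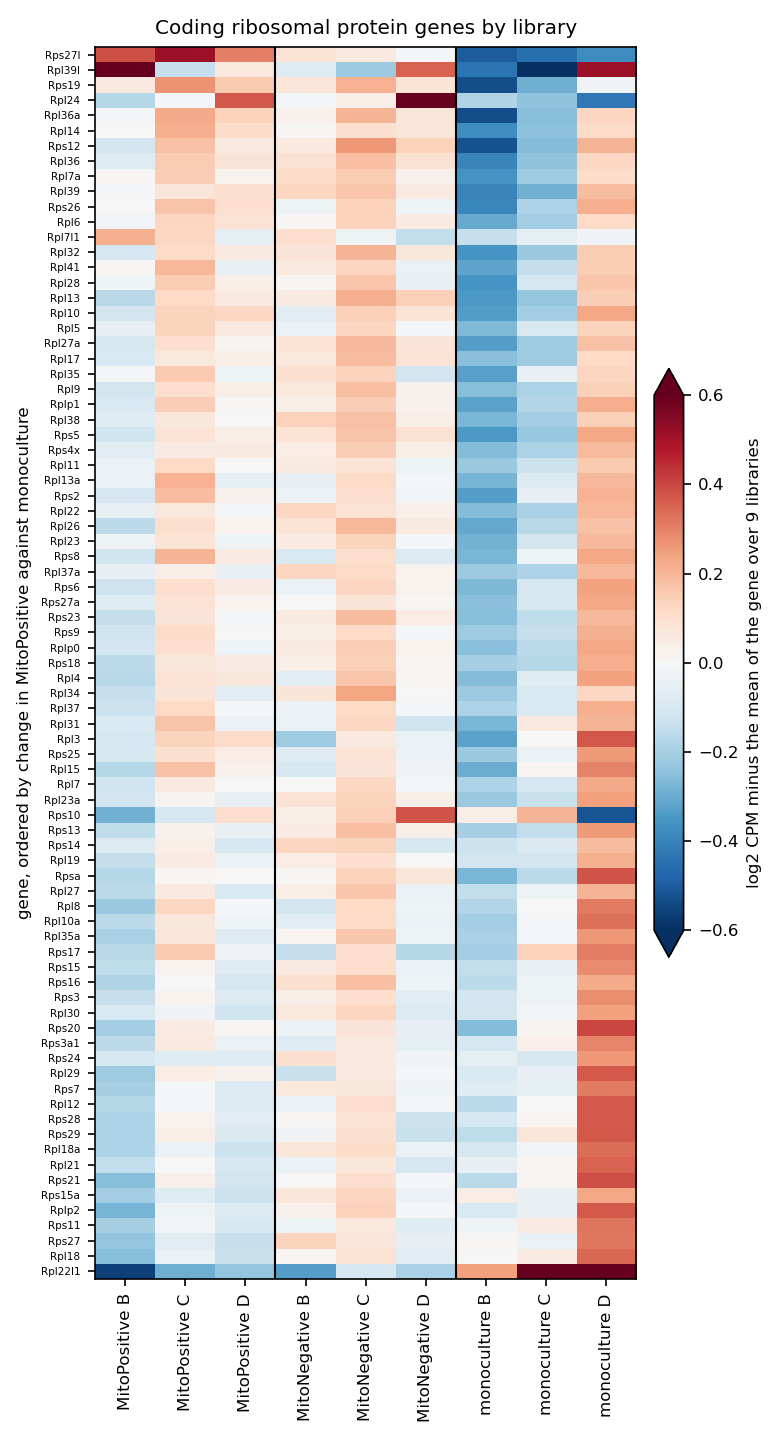
Log2 CPM of each tested coding ribosomal protein gene in each library, minus its mean over 9 libraries (red above, blue below, colours end at ±0.6). Columns run MitoPositive B, C, D, MitoNegative B, C, D and monoculture B, C, D, and genes are ordered by the change in MitoPositive against monoculture cells. Monoculture B is blue and monoculture D red over most genes, and Rps27l and Rpl22l1 differ by group.

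Against monoculture, few members passed the test in either co-cultured group. In MitoPositive cells 2 of 87 rose (Rps27l and Rps19) and 2 fell (Rpl22l1 and Rpl18), against 42.2% of 15711 genes called in this comparison, 22.3% higher and 19.9% lower (edgeR quasi-likelihood test, adjusted p under 0.05 over all genes). In MitoNegative cells 2 rose (Rps27l and Rps19) and 1 fell (Rpl22l1), against 38.9% of all genes, 20.6% higher and 18.3% lower. Unadjusted p was under 0.05 for 9 members in the first comparison and 6 in the second, against 49.9% and 47.0% of all genes. The median log2 fold change over the members was 0.03 and 0.06 in these comparisons, which share their controls, and 0.00 and 0.01 over all genes tested.

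These counts depend on monoculture D. It had the highest share of these genes among the monoculture libraries, so leaving it out raises most changes by construction. Without it 29 members were higher in MitoPositive than in monoculture cells, where 23.0% of all genes were higher and 18.7% lower, and 36 in MitoNegative cells, where 20.9% were higher and 16.6% lower. In each, 1 member was lower. The medians were then 0.19 and 0.22, against -0.06 and 0.00 without monoculture B. With the letters as a block, 6 members rose in MitoNegative against monoculture cells (Rpl13, Rpl36, Rpl36a, Rps12, Rps19 and Rps27l) and 1 fell, where 44.9% of all genes were called, 23.5% higher and 21.5% lower.

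Rps27l was the member with the largest rise among those that passed. It measured 95.3, 104 and 89.95 CPM in MitoPositive B, C and D, 77.2, 76.0 and 72.6 CPM in MitoNegative B, C and D, and 51.6, 53.3 and 56.1 CPM in monoculture B, C and D. All MitoPositive libraries lay above all MitoNegative libraries, which lay above all monoculture libraries, with no overlap. The log2 fold change over monoculture was 0.85 ± 0.06 in MitoPositive (SE, edgeR adjusted p = 1.67e-06) and 0.49 ± 0.06 in MitoNegative cells (adjusted p = 0.000128). Monoculture D was unremarkable for this gene, and leaving out each library in turn kept the change between 0.79 and 0.89 in MitoPositive and between 0.46 and 0.53 in MitoNegative cells.

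Rps27l is known as a direct target of p53 in human cells, and its protein acts on MDM2, the ligase that degrades p53. Rps27, the parent gene, measured 1361, 1532 and 1460 CPM in MitoPositive B, C and D, 1762, 1690 and 1553 CPM in MitoNegative B, C and D, and 1614, 1561 and 1997 CPM in monoculture B, C and D. MitoPositive libraries were the lowest and overlapped with neither other group, although no comparison passed the test (log2 fold change over monoculture -0.25 ± 0.10, edgeR adjusted p = 0.0688). With DESeq2 that fall passed (-0.25, adjusted p = 0.0286), as it did in edgeR without monoculture C (-0.32, adjusted p = 0.0398). Of the counts of the pair, Rps27l made up 6.55, 6.37 and 5.80% in MitoPositive B, C and D, 4.20, 4.30 and 4.47% in MitoNegative B, C and D, and 3.10, 3.30 and 2.73% in monoculture B, C and D. This share needs no scaling between libraries, and its groups do not overlap.

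Rpl22l1 (chr3:28805436-28807424, plus strand) fell most. It is the paralog of Rpl22 (chr4:152325742-152334071, plus strand), an RNA-binding protein that αβ T-cell development needs in mice and that represses Rpl22l1 in mice. Rpl22l1 measured 95.0, 114 and 119 CPM in MitoPositive B, C and D, 111, 131 and 122 CPM in MitoNegative B, C and D, and 166, 217 and 250 CPM in monoculture B, C and D. Every co-cultured library lay below every monoculture library, and the 2 co-cultured groups overlapped. The log2 fold change was -0.95 ± 0.14 in MitoPositive (SE, edgeR adjusted p = 0.000501) and -0.80 ± 0.14 in MitoNegative cells (adjusted p = 0.00168).

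The parent gene Rpl22 had no call with all libraries. It measured 751, 810 and 772 CPM in MitoPositive B, C and D, 844, 823 and 792 CPM in MitoNegative B, C and D, and 646, 677 and 890 CPM in monoculture B, C and D, with monoculture D the highest of all and the groups overlapping. Its log2 fold change over monoculture was 0.08 ± 0.11 in MitoPositive and 0.15 ± 0.11 in MitoNegative cells, with edgeR adjusted p = 0.601 and 0.288. Without monoculture D these values passed, at 0.24 (adjusted p = 0.00892) and 0.32 (adjusted p = 0.00247). Without monoculture B they were -0.01 and 0.06 and did not pass. Of the counts of this pair, Rpl22l1 made up 11.2, 12.4 and 13.3% in MitoPositive B, C and D, 11.7, 13.7 and 13.4% in MitoNegative B, C and D, and 20.4, 24.3 and 21.9% in monoculture B, C and D. Their coding sequences are 70.2% identical.

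**Figure D4:**
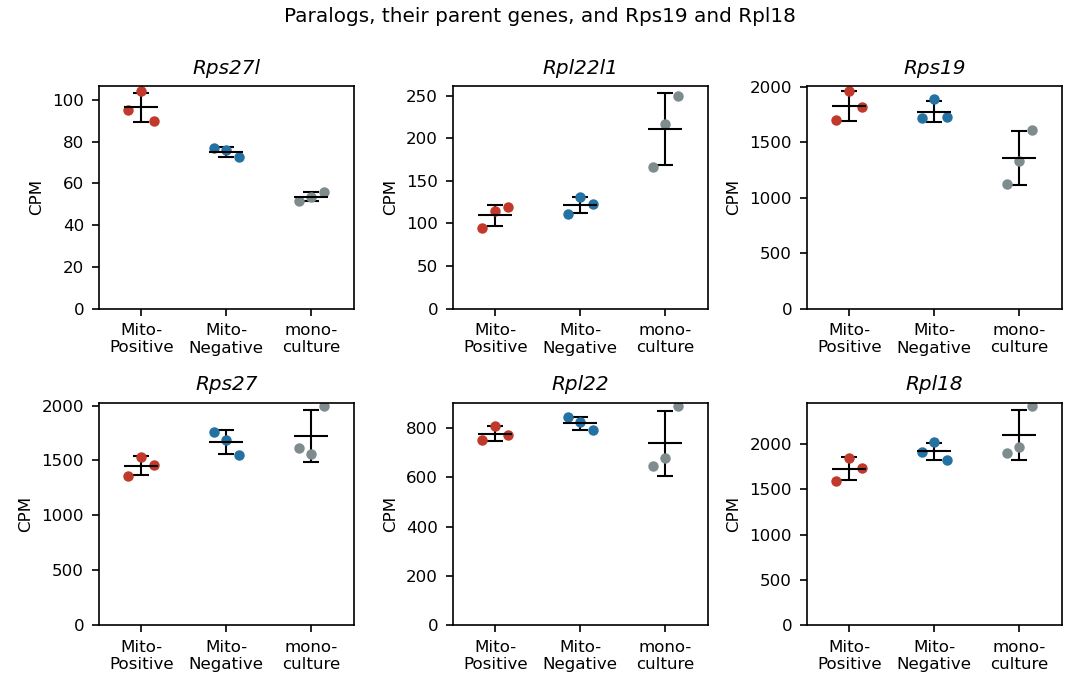
CPM of Rps27l, Rpl22l1 and Rps19 (top) and of Rps27, Rpl22 and Rpl18 (bottom) in MitoPositive, MitoNegative and monoculture cells. Points are libraries B, C and D from left to right, and bars show mean ± SD (n = 3). Rps27l steps down over the 3 groups, Rpl22l1 is highest and Rps19 lowest in monoculture.

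Rps19, the small-subunit gene most often mutated in Diamond-Blackfan anaemia, rose in both co-cultured groups. It measured 1699, 1964 and 1817 CPM in MitoPositive B, C and D, 1715, 1886 and 1724 CPM in MitoNegative B, C and D, and 1127, 1331 and 1609 CPM in monoculture B, C and D. The monoculture libraries were all lower, with monoculture D the nearest. The log2 fold change was 0.43 ± 0.12 in MitoPositive (SE, edgeR adjusted p = 0.0114) and 0.39 ± 0.12 in MitoNegative cells (adjusted p = 0.0208). In MitoNegative cells it missed the threshold without MitoNegative C (0.35, adjusted p = 0.0674), without monoculture B (0.27, 0.0695) and without monoculture C (0.37, 0.0617).

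Rpl18, a core large-subunit gene, measured 1597, 1852 and 1735 CPM in MitoPositive B, C and D, 1913, 2021 and 1825 CPM in MitoNegative B, C and D, and 1905, 1972 and 2419 CPM in monoculture B, C and D. MitoPositive libraries lay below monoculture libraries without overlap, and MitoNegative overlapped with both. The fall in MitoPositive cells was -0.28 ± 0.10 on the log2 scale (SE, edgeR adjusted p = 0.0441). It missed the threshold without MitoPositive B, MitoPositive D, any 1 MitoNegative library or monoculture D, with adjusted p up to 0.154, and was -0.155 without monoculture D. In MitoNegative cells the value was -0.13 ± 0.10 (adjusted p = 0.349).

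The other pairs of paralog and parent had no call with all libraries. Without monoculture D, Rpl10, Rpl39, Rps4x and the pseudogene Rps4l were called higher in MitoPositive and Rpl10, Rpl39 and Rps4x in MitoNegative than in monoculture cells (edgeR). Without monoculture B none of these genes was called in either comparison. Rpl7l1, whose human protein acts in large-subunit assembly, measured 155, 146 and 129 CPM in MitoPositive, 143, 131 and 121 CPM in MitoNegative and 121, 129 and 132 CPM in monoculture B, C and D, with overlapping groups. It was called higher in MitoPositive than in monoculture cells with total counts as the scale and without MitoPositive D. Its parent Rpl7 measured 2132 to 2841 CPM over the 9 libraries. Rpl39l stayed at 0.514 CPM or less in every library, where Rpl39 measured 733 to 1094 CPM. Rpl3 measured 1476 to 2380 CPM, Rpl10 871 to 1289 CPM and Rps4x 2923 to 3990 CPM, each lowest in monoculture B and highest in monoculture D. Coding identity between paralog and parent was 55.2% for Rpl7l1, 85.3% for Rpl39l, 73.9% for Rpl3l and 84.8% for Rpl10l.

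The stalk, through which elongation factors reach the ribosome, is built of Rplp0, Rplp1 and Rplp2. None of the 3 passed in any comparison with all libraries. Rplp2 was lowest in MitoPositive cells, at 1167, 1388 and 1338 CPM in B, C and D, against 1439, 1557 and 1409 CPM in MitoNegative and 1329, 1372 and 1828 CPM in monoculture B, C and D. It overlapped between MitoPositive and monoculture cells (log2 fold change -0.22 ± 0.12, edgeR adjusted p = 0.164). Rplp0 and Rplp1 had values of 0.03 ± 0.13 and 0.10 ± 0.13 in the same comparison, and Rplp1 passed without monoculture D (0.28, adjusted p = 0.0204). In MitoNegative against monoculture cells both Rplp0 and Rplp1 were called higher without monoculture D. Neither gene was called in either comparison without monoculture B.

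Of 12 members with known roles beyond the ribosome only Rps19 passed with all libraries, in each comparison with monoculture. Without monoculture D, Rpl5, Rpl11, Rpl26, Rpl38 and Rpl41 were called too in MitoPositive, and Rpl11, Rpl26, Rpl38, Rpl41, Rps27a and Rpsa in MitoNegative cells, all higher. None of these additional genes was called in either comparison without monoculture B. Rpl5 and Rpl11, which bind MDM2 when ribosome assembly is disturbed, measured 2226, 2520 and 2399 CPM and 1279, 1429 and 1315 CPM in MitoPositive B, C and D. They measured 2238, 2514 and 2288 CPM and 1363, 1391 and 1287 CPM in MitoNegative, and 1913, 2157 and 2521 CPM and 1127, 1201 and 1465 CPM in monoculture B, C and D. Groups of both genes overlapped, with log2 fold changes of 0.12 ± 0.11 and 0.09 ± 0.10 in MitoPositive over monoculture cells. Without monoculture D both passed, at 0.24 (edgeR adjusted p = 0.0424) and 0.22 (adjusted p = 0.0308). Without monoculture B the values were 0.024 and 0.00742, and neither passed.

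Among the others of this list, Rpl26, which raises translation of p53 in human cells, Rpl38, needed for Hox gene translation in mice, Rpl10a, Rpl13a, Rps25 and Rpsa, the laminin receptor precursor, had log2 fold changes between -0.09 and 0.10 in MitoPositive over monoculture cells. Rpl38 had the largest value in MitoNegative over monoculture cells, 0.22 ± 0.10 (edgeR adjusted p = 0.104), at 537, 552 and 502 CPM in MitoNegative and 404, 423 and 539 CPM in monoculture B, C and D. Rps6, whose protein is the classic substrate of S6 kinase, and Rps27a, which is fused to ubiquitin, both had a value of 0.04 in MitoPositive over monoculture cells. Rpl41, whose product is the smallest ribosomal protein, had 0.14 ± 0.11. Without monoculture D, Rpl26 (0.24), Rpl38 (0.25) and Rpl41 (0.29) passed in MitoPositive over monoculture cells (edgeR adjusted p = 0.0485, 0.0119 and 0.0217). Rpl38 (0.37, adjusted p = 0.00168) was among those that passed in MitoNegative cells, as named above. Without monoculture B these values were -0.03, 0.02 and 0.04 in MitoPositive and 0.14 for Rpl38 in MitoNegative cells, and none passed.

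Since the members moved together within groups, each was also measured as a share of the summed member counts, with all genes tested on that scale. In MitoPositive against monoculture cells 4 members then rose, Rps27l (0.83), Rps19 (0.44), Rpl36a (0.33) and Rpl14 (0.27), and 2 fell, Rpl22l1 (-0.94) and Rpl18 (-0.28). On this scale 25.5% of all genes were called, 14.7% higher and 10.7% lower. The scale takes out shifts that the members share and adds them to other genes, so members and all genes are not on equal terms. In MitoNegative against monoculture cells Rps27l (0.41) and Rps19 (0.32) rose and Rpl22l1 (-0.86) fell, where 23.6% of all genes were called, 11.4% higher and 12.3% lower. In MitoNegative cells the call of Rps27l on this scale was lost without MitoNegative B, C or D or monoculture C, and that of Rps19 without MitoNegative C or D. In MitoPositive cells the call of Rpl18 was lost without MitoPositive B, C or D or monoculture C, that of Rpl36a without MitoPositive C or D or monoculture C, and that of Rpl14 without any 1 MitoPositive or MitoNegative library or monoculture C.

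Rpl36a, an X-linked large-subunit gene, had an edgeR adjusted p of 0.0218 on this scale in MitoPositive cells and 0.0914 as CPM. It measured 634, 748 and 703 CPM in MitoPositive, 649, 734 and 671 CPM in MitoNegative and 441, 534 and 697 CPM in monoculture B, C and D. Monoculture D reached the co-cultured libraries in CPM. Rpl14, a large-subunit gene, measured 1244, 1448 and 1344 CPM in MitoPositive, 1251, 1331 and 1310 CPM in MitoNegative and 960, 1049 and 1350 CPM in monoculture B, C and D, with an edgeR adjusted p of 0.0371 as a share and 0.0838 as CPM. Without monoculture D both genes passed as CPM, Rpl36a at 0.52 (adjusted p = 0.00168) and Rpl14 at 0.43 (adjusted p = 0.00129). Without monoculture B they were at 0.17 and 0.16 as CPM and did not pass. As shares of the family, both genes separated the 2 groups without overlap.

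**Figure D5:**
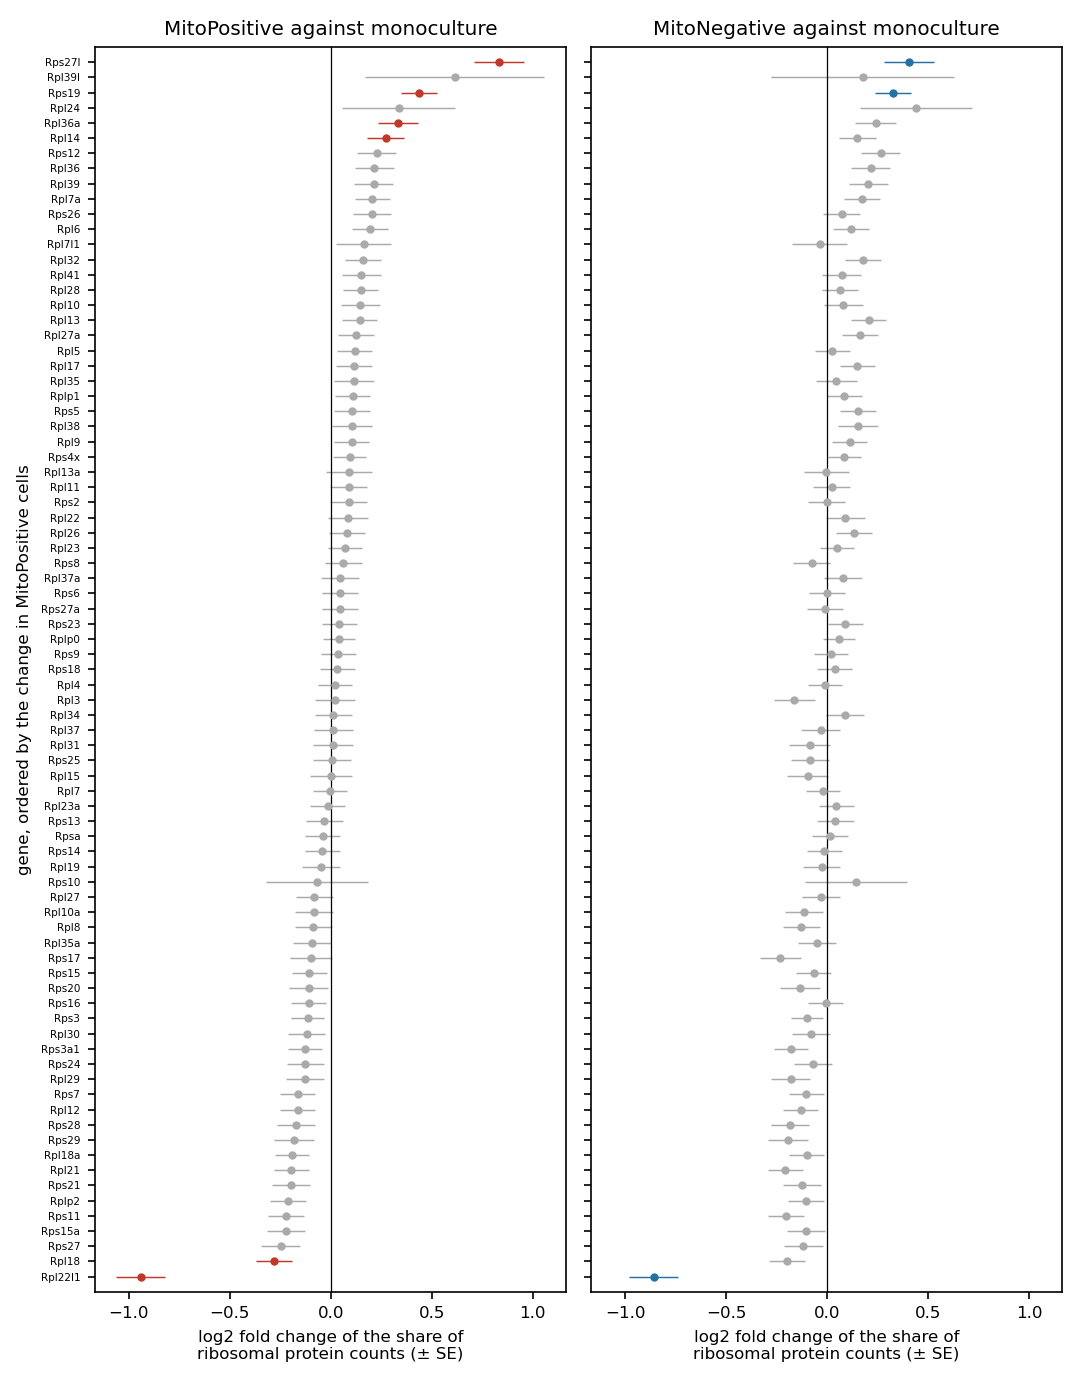
Log2 fold change (± SE, edgeR) of each tested coding member as a share of the summed ribosomal protein counts, in MitoPositive (left) and MitoNegative (right) against monoculture cells, ordered by the left panel. Coloured points passed an adjusted p of 0.05. Most members lie near 0, and Rps27l, Rps19 and Rpl22l1 stand out in both panels.

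On the share scale 48 of 87 members did not overlap between MitoPositive and monoculture libraries, 28 higher and 20 lower, against 35.4% of all genes, 21.1% higher and 14.4% lower. Between MitoNegative and monoculture libraries 43 did not overlap, 24 higher and 19 lower, against 35.1% of all genes, 17.0% higher and 18.1% lower. By construction this scale takes out shifts that the members share and adds them to every other gene. Members and all genes are therefore not on equal terms here, and no conclusion is drawn from their difference. As CPM only 7 and 4 members did not overlap, against 51.6% of all genes in MitoPositive (27.3% higher, 24.3% lower) and 48.7% in MitoNegative cells (25.9% higher, 22.9% lower). The 7 were Rps27l, Rps19 and Rpl24, which were higher, and Rpl22l1, Rpl18, Rps27 and Rps15a, which were lower. With the letters as a block the share scale called 9 higher and 6 lower members in MitoNegative cells, where 27.9% of all genes were called, 12.8% higher and 15.1% lower. Without monoculture D it called 10 higher and 6 lower in MitoPositive cells, where 13.6% of all genes were higher and 23.6% lower, and 7 higher and 6 lower in MitoNegative cells, where 10.5% were higher and 28.3% lower.

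Between MitoPositive and MitoNegative cells, which shared the co-culture, few genes of any kind passed the test. None of 87 members passed in the main fit, which does not pair the letters although they were taken as pairs here. In it 1 member had an unadjusted p under 0.05, against 10.5% of all genes (edgeR). Of all genes 0.165% were called, 0.0891% higher and 0.0764% lower, so the lack of calls does not set the members apart. DESeq2 and limma voom each called 1 member, Rps27l. Shares of all genes called were not set beside these counts, which describe the member alone. The log2 fold change of Rps27l was 0.36 ± 0.06 with an adjusted p of 0.0542 (edgeR), and with the letters as a block it was 0.36 ± 0.06 with an adjusted p of 0.0193. It also passed without MitoPositive D (adjusted p = 0.0248) and without monoculture D (adjusted p = 0.0372). In the blocked fit 2.34% of all genes were called, 1.26% higher and 1.08% lower. The median over the members was -0.06, with 66 of 87 members negative. Over all genes it was 0.00, with 7874 of 15711 negative. Since the members shifted together between libraries, their signs are not independent. Without MitoNegative C the median over the members was -0.01.

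Of the 87, 8 did not overlap between MitoPositive and MitoNegative libraries, 1 higher (Rps27l) and 7 lower, against 20% of all genes, 10.5% higher and 9.55% lower. The members with the next smallest p were Rps15a, Rps27, Rps16 and Rpl7l1. Rps15a, a small-subunit gene, measured 2452, 2690 and 2586 CPM in MitoPositive against 2972, 3089 and 2753 CPM in MitoNegative B, C and D, without overlap (-0.19 ± 0.09, edgeR adjusted p = 0.517). Rps16, whose protein reaches the decoding site, measured 1736, 1966 and 1835 CPM in MitoPositive against 2100, 2231 and 1923 CPM in MitoNegative B, C and D and overlapped (-0.18 ± 0.11, adjusted p = 0.620). As shares of the family 27 members did not overlap, 14 higher and 13 lower, against 17.1% of all genes, 14.0% higher and 3.09% lower. By construction this scale does not treat members and other genes alike, so no conclusion is drawn from that difference. None of the members passed on it (1 at an unadjusted p under 0.05, edgeR), where 0.0573% of all genes were called.

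Across members, the change on the share scale followed simple features weakly at most. Over 76 coding members above 100 CPM in monoculture cells, Pearson's r with coding length was 0.15 in MitoPositive against monoculture, 0.03 in MitoNegative against monoculture and 0.32 in MitoPositive against MitoNegative cells. With the GC content of the coding sequence it was 0.21, 0.22 and 0.03 in these comparisons. Spearman's rank correlation with GC content was only 0.02, 0.02 and 0.01. Pearson's r with the share of 50-base stretches found in other genes was 0.16, 0.14 and 0.09. These points come from the same 9 libraries and are not independent.

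Of 5 ribosomal protein genes that the symbol rule leaves out, 1 passed, in MitoPositive against monoculture cells. Fau, a small-subunit protein fused to a ubiquitin-like domain, measured 1210, 1334 and 1261 CPM in MitoPositive, 1443, 1453 and 1335 CPM in MitoNegative and 1125, 1093 and 1430 CPM in monoculture B, C and D. Rack1, the signalling scaffold on the small subunit, had log2 fold changes of 0.09 ± 0.13 in MitoPositive and 0.16 ± 0.13 in MitoNegative over monoculture cells. Neither of these passed. Rps27rt, a retrotransposed copy of Rps27, fell in MitoPositive cells (-0.26 ± 0.09, edgeR adjusted p = 0.0389). It missed the threshold without MitoPositive B or D, MitoNegative C, or monoculture C or D, with values between -0.284 and -0.158. Rack1 passed in MitoNegative cells without monoculture D (0.33, edgeR adjusted p = 0.027) and had 0.055 without monoculture B.

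Genes of ribosome assembly were mostly higher where they passed. Of 40 tested small-subunit assembly genes 16 rose and 2 fell in MitoPositive and 12 rose and 2 fell in MitoNegative against monoculture cells, with medians of 0.14 and 0.05. Of 48 large-subunit assembly genes 17 rose and 1 fell in MitoPositive and 11 rose and 1 fell in MitoNegative cells, with medians of 0.14 and 0.06. These stand against 22.3% of all genes higher and 19.9% lower in the first comparison and 20.6% and 18.3% in the second. For the lists that follow, the shares of all genes called in either direction were 42.2% and 38.9%. Set beside these in the same order, 38.1% and 33.3% of the RNA polymerase I list were called, 36.4% and 36.4% of the H/ACA list, 47.1% and 32.4% of initiation factors and 37.5% and 25% of elongation genes. The same shares were 28.6% and 19% for other TOP genes, 36% and 40% for mTORC1 and TOP control, 44.4% and 55.6% for the Myc network, 66.7% and 66.7% for surveillance and 66.7% and 44.4% for ribosome quality control.

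Bysl, an assembly factor of the 40S subunit, measured 37.9, 38.9 and 32.1 CPM in MitoPositive, 29.5, 29.3 and 25.4 CPM in MitoNegative and 16.1, 20.9 and 19.4 CPM in monoculture B, C and D. The 3 groups do not overlap (log2 fold change over monoculture 0.95 ± 0.11 in MitoPositive and 0.58 ± 0.11 in MitoNegative cells, edgeR adjusted p = 3.02e-05 and 0.00122). Nop56, the core protein of box C/D snoRNPs, rose by 0.62 ± 0.08 and 0.50 ± 0.08 on the log2 scale in these comparisons, and Nop2, a methyltransferase of 28S rRNA, by 0.56 ± 0.08 and 0.41 ± 0.08. Gnl3 (nucleostemin) rose by 0.52 ± 0.11 and 0.54 ± 0.11, and Mrto4, an assembly paralog of Rplp0, by 0.49 ± 0.09 and 0.33 ± 0.09. The rise of Mrto4 in MitoNegative cells missed the threshold without monoculture B (0.25, edgeR adjusted p = 0.0593).

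Of 21 genes of RNA polymerase I and rDNA transcription 5 rose and 3 fell in MitoPositive and 4 rose and 3 fell in MitoNegative against monoculture cells. The subunit genes Polr1b and Polr1c rose in MitoPositive cells by 0.50 ± 0.09 and 0.46 ± 0.07, while Ubtf, which opens rDNA for transcription, fell at -0.42 ± 0.07 (edgeR adjusted p = 0.000464). Of 11 genes of box H/ACA particles and nucleolar chaperones 4 rose in MitoPositive cells and none fell (0 lower), and 2 rose and 2 fell in MitoNegative cells. Npm1, the nucleolar chaperone nucleophosmin and itself a TOP gene, measured 1453, 1542 and 1516 CPM in MitoPositive, 1510, 1573 and 1414 CPM in MitoNegative and 944, 1180 and 1348 CPM in monoculture B, C and D. Its monoculture libraries were all lower, with monoculture D the nearest.

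Of 34 initiation factor genes 15 rose and 1 fell in MitoPositive and 10 rose and 1 fell in MitoNegative against monoculture cells, with medians of 0.16 and 0.11 and with 28 and 27 of the 34 above 0. Eif1, which guards the choice of start codon, measured 590, 608 and 592 CPM in MitoPositive, 647, 649 and 613 CPM in MitoNegative and 404, 380 and 442 CPM in monoculture B, C and D, without overlap of either group with monoculture. Eif4a2, a helicase isoform, rose by 0.64 ± 0.14 and 0.82 ± 0.14, and Eif2s2, the beta subunit of eIF2, by 0.51 ± 0.09 and 0.49 ± 0.09 on the log2 scale. Of 8 elongation genes 2 rose and 1 fell in MitoPositive and 1 rose and 1 fell in MitoNegative cells, and the one that fell in both was Eef2k, the kinase that blocks eEF2 (-0.83 ± 0.10 and -0.28 ± 0.10). Its fall in MitoNegative cells missed the threshold without any 1 of MitoPositive C or D, MitoNegative B or D, or monoculture B, C or D, with values between -0.31 and -0.182, and also with total counts as the scale (edgeR adjusted p = 0.0699), TMM without the members (adjusted p = 0.0628) or only the 2 groups fitted (adjusted p = 0.0554).

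Other TOP genes, of which 21 were tested, rose in 6 cases in MitoPositive and 4 in MitoNegative cells, with 0 lower in each and medians of 0.06 and 0.10. Snhg1, a noncoding snoRNA host, rose by 0.69 ± 0.09 and 0.70 ± 0.09. Of 25 genes of mTORC1 and TOP control 6 rose and 3 fell in MitoPositive and 8 rose and 2 fell in MitoNegative cells. Sesn1, a leucine sensor that restrains mTORC1, fell to 40.2, 41.7 and 40.2 CPM in MitoPositive and 39.98, 46.9 and 45.2 CPM in MitoNegative cells, against 138, 125 and 122 CPM in monoculture B, C and D. Eif4ebp2, a repressor of cap-dependent initiation, fell at -1.04 ± 0.07 and -0.92 ± 0.07 in these comparisons, while Sesn2 rose by 0.56 ± 0.10 and 0.37 ± 0.10. The rise of Sesn2 in MitoNegative cells missed the threshold without MitoNegative D (edgeR adjusted p = 0.0508) or monoculture B (adjusted p = 0.0537).

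Of 9 genes of the Myc network tested, 2 rose and 2 fell in MitoPositive and 3 rose and 2 fell in MitoNegative cells. Myc, which drives ribosome biogenesis in activated T cells, measured 165, 191 and 172 CPM in MitoPositive, 133, 148 and 152 CPM in MitoNegative and 99.7, 113 and 112 CPM in monoculture B, C and D. The 3 groups do not overlap (0.70 ± 0.08 and 0.42 ± 0.08 over monoculture, edgeR adjusted p = 2.42e-05 and 0.0012). Mxd1, an antagonist of Myc, also rose, by 2.27 ± 0.08 and 2.06 ± 0.08, and its relative Mxd4 fell at -0.89 ± 0.11 and -0.77 ± 0.11.

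The surveillance list holds Rpl5, Rpl11 and Rps27l beside p53 and its targets. Of its 9 genes 5 rose and 1 fell in each comparison with monoculture (log2 fold change of the fall -0.25 in each). In MitoPositive against MitoNegative cells 3 were higher, where 0.165% of all genes were called. The list was chosen with earlier results of these data known and holds Rps27l itself. These counts are therefore a description and not a test. Cdkn1a, which encodes the cell-cycle inhibitor p21, measured 194, 206 and 162 CPM in MitoPositive, 107, 108 and 111 CPM in MitoNegative and 3.52, 5.06 and 5.37 CPM in monoculture B, C and D. Its 3 groups do not overlap. The log2 fold change was 5.33 ± 0.15 in MitoPositive and 4.54 ± 0.15 in MitoNegative over monoculture cells. Between MitoPositive and MitoNegative cells it was 0.79 ± 0.12 (edgeR adjusted p = 0.0464). The difference between MitoPositive and MitoNegative cells missed the threshold without MitoPositive B or C, any 1 MitoNegative library or monoculture C, at values between 0.715 and 0.802.

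Phlda3 and Zmat3, both known p53 targets, were the other 2 genes higher in MitoPositive than in MitoNegative cells, by 0.49 ± 0.05 (edgeR adjusted p = 0.00713) and 0.42 ± 0.05 (adjusted p = 0.0252) on the log2 scale. Phlda3 missed the threshold without MitoPositive C, MitoNegative B or MitoNegative C, with adjusted p up to 0.0997, and Zmat3 without MitoPositive B or C or MitoNegative B or C, with adjusted p up to 0.235. Mdm2 was at 153, 162 and 152 CPM in MitoPositive, 133, 140 and 141 CPM in MitoNegative and 107, 103 and 93.1 CPM in monoculture B, C and D. Its 3 groups do not overlap, and its value between MitoPositive and MitoNegative cells was 0.17 ± 0.06 (adjusted p = 0.323). Rps27l had 0.36 ± 0.06 in the same comparison. Whether p53 acts on Rps27l in these cells was not tested.

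Ribosome quality control, which handles stalled and collided ribosomes, had 9 tested genes, of which 5 rose and 1 fell in MitoPositive and 3 rose and 1 fell in MitoNegative against monoculture cells. Map3k20, whose product ZAK senses collided ribosomes, measured 5.32, 7.10 and 6.51 CPM in MitoPositive, 3.17, 3.42 and 4.39 CPM in MitoNegative and 0.115, 0.466 and 0.282 CPM in monoculture B, C and D. The groups do not overlap (4.45 ± 0.33 and 3.66 ± 0.33 over monoculture, edgeR adjusted p = 2.02e-06 and 1.15e-05). Zfp598, the ligase that marks collided ribosomes, rose by 0.37 ± 0.07 and 0.36 ± 0.07, and Ascc3, a helicase that pulls them apart, by 0.64 ± 0.12 and 0.79 ± 0.12.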

How the data were processed

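Total RNA of mouse CD8+ T cells was depleted of ribosomal RNA and sequenced. Per the submitters' processing notes the pipeline included bcl2fastq, cutadapt, STAR 2.7, featureCounts, DESeq2 and the build GRCm38. The deposited values used are raw counts per gene, whole and not normalized by the authors. Annotation release, strandedness and the treatment of reads with several matches are not given in the sources used here. Counts of overlapping genes and near-identical copies are uncertain for that reason. Exon lengths deposited with the counts equalled those of GENCODE M21 for all 54587 shared identifiers.

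The table holds 55520 entries, 99 of them spike-ins with 0 counts. In R 4.3.3, edgeR 4.0.16 kept 15711 genes (filterByExpr, minimum count 10, minimum total 15), which hold at least 99.96% of each library. Libraries were scaled by TMM, and all 9 were fitted by group with robust quasi-likelihood (6 residual degrees of freedom). P-values were adjusted by Benjamini-Hochberg over all genes, with a threshold of 0.05. CPM values are TMM-scaled. A second fit used the summed member counts as the scale of every gene. Scripts were tested on simulated data.

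Letters B, C and D were taken as pairs where each correlation of same-letter deviations over all genes was above 0.1. It was 0.402, 0.339 and 0.459 between MitoPositive and MitoNegative, and 0.213, 0.153 and 0.111 between MitoNegative and monoculture, which pairs both. Between MitoPositive and monoculture it was 0.248, 0.0521 and 0.163, which does not. The main fit did not use these pairs, and blocking by letter reduced the residual degrees of freedom to 4. No 2 replicates agreed within counting noise, as chi-square over its degrees of freedom was 17.4 to 59.7 over all genes. Over the members it was 54.1 to 215, a measure that also grows with the height of the counts.

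Alternatives were other scalings, no filter, DESeq2 1.42.0, limma voom 3.58.1, the block, fits of only the groups compared, added pseudogene counts and each library left out. Sequences were compared with Biopython 1.88. The members and lists were chosen with earlier results of these data known. Genes named were all called members, those of smallest p, the highest and lowest per kb, listed paralogs, stalk and multi-role members, and up to 4 called genes of each other list. One gene that this rule names is not reported here.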

Additional observations from a re-analysis of the deposited data

How the results depend on the processing

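Rps27l and Rpl22l1 kept direction and side of the threshold in both comparisons with monoculture under all alternatives run on the CPM scale. On the share scale the call of Rps27l in MitoNegative against monoculture cells was lost without MitoNegative B, C or D or monoculture C. Members higher in MitoPositive than in monoculture cells, 2 in the main fit, numbered 6 with total counts as the scale, 4 with DESeq2 and 4 with the replicate letters as a block, where 47.8% of all genes were called. Members lower, 2 in the main fit, numbered 5 with DESeq2, 1 with TMM computed without the members and 1 with only the 2 groups fitted. In MitoNegative against monoculture cells 6 were higher with total counts as the scale and 6 with the block, where the main fit had 2. In MitoPositive against MitoNegative cells 1 member, Rps27l, was higher with total counts as the scale, TMM without the members, no filter, DESeq2, limma voom or the block, with an adjusted p of 0.000222 to 0.0499. On the share scale the block called 10 higher and 11 lower members in MitoPositive, against 4 and 2 (29.7% of all genes called), and 9 higher and 6 lower in MitoNegative against monoculture cells, against 2 and 1. Among these alternatives, shares of all genes called are given for the block only, so the other counts describe the members alone. The cause of the shifts between settings was not tested.

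With each library left out in turn, higher members numbered 2 to 29 in MitoPositive and 1 to 36 in MitoNegative against monoculture cells and 0 to 1 in MitoPositive against MitoNegative cells. Lower members numbered 1 to 4, 1 to 1 and 0 to 0 in these comparisons. On the share scale higher members numbered 2 to 10, 0 to 7 and 0 to 1, and lower members 1 to 6, 1 to 6 and 0 to 0. Shares of all genes were set beside such counts only without monoculture D, so these ranges describe the members alone. The median log2 fold change ran from -0.06 to 0.19, from 0.00 to 0.22 and from -0.11 to -0.01. With the letters as a block the difference in the share of counts was 0.301, 0.806 and -0.505 percentage points. These values equal the differences of the group means by construction, since each letter occurs once in every group. The exact permutation test of this share cannot pass the threshold, as its smallest possible p is 0.25 within letters and 0.1 without pairing. No conclusion on the letters is therefore drawn from it. With libraries left out the difference in the share of counts ran from -0.406 to 1.19, from 0.0985 to 1.69 and from -0.852 to -0.0788 percentage points.

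Of the single-gene changes given, 11 changed sign under some alternative, all of them in MitoPositive against monoculture cells and all without a call in the main fit. Rps25 was -0.000762 with DESeq2's size factors and -0.000757 with DESeq2. With libraries left out, its log2 fold change ran from -0.104 to 0.151, that of Rpl22 from -0.0129 to 0.244, Rplp0 from -0.0618 to 0.205, Rplp1 from -0.0112 to 0.283, Rpl26 from -0.0277 to 0.235 and Rpl10a from -0.211 to 0.0793. That of Rpl13a ran from -0.0237 to 0.229, Rpsa from -0.186 to 0.176, Rps6 from -0.0723 to 0.205, Rps27a from -0.0654 to 0.194 and Rack1 from -0.0186 to 0.255. In each, the lowest value came without monoculture B and the highest without monoculture D. Only 3 libraries a group limit the precision of all values.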
